A study of Mus musculus with 10 samples.

Results

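Horizontal basal cells are the reserve stem cells of the olfactory epithelium. They lie flat on the basement membrane, hold to it through hemidesmosomes, divide rarely, and replace neurons and supporting cells when the layers above them are lost. The transcription factor p63 keeps them in this resting state, and a lasting loss of p63 lets them leave it. The paired filaments of keratin 5 and keratin 14 mark them, as they mark the basal layer of the skin and of the airways. Described here are 7 genes that mark these cells, though not these cells alone. They are the keratins Krt5, Krt14 and Krt15, the p63 gene Trp63, and the adhesion genes Icam1, Itgb4 and Col17a1. They were chosen by name, but with earlier results of these data known. Each of the 7 genes had 1 probe set with a single gene symbol and all 7 passed the filter on dim signal, out of 19938 genes with such a probe set and 23194 probe sets tested.

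The values are log2 signals of whole main olfactory epithelium (MOE) of mice at 5 weeks of age on Affymetrix Mouse Gene 1.0 ST arrays, 4 from H2be-GF and 6 from wild-type (WT) mice. H2be-GF mice carry a transgene, Omp:Flag-H2be, that adds FLAG-tagged H2BE, a histone variant of olfactory neurons, to mature neurons under the promoter of the olfactory marker protein gene, and WT mice lack it. They descend from 1 founder line, in which a band of neurons near zone 2 lacks the tagged protein, and no horizontal basal cell is among the cells in which that promoter is known to act. Every array held RNA pooled from more than 1 mouse, and by the paper the pools were larger for H2be-GF than for WT. The submitters describe the samples as holding both sexes in equal parts. The comparison therefore asks how genes of a stem cell below the neurons differ in tissue whose neurons carry more H2BE.

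The labelled tissue was checked against 8 markers of mature olfactory neurons, whose mean signal was 11.98 to 12.02 on the H2be-GF arrays and 12.02 to 12.11 on the WT arrays, with no marker at 0 on any array. By the signal of Xist, the RNA that coats the silenced X chromosome of female cells, the arrays fell into a high set (lowest signal 11.69) of H2be-GF 1 and 2 with WT 1 to 3, and a low set (highest signal 4.61) of H2be-GF 3 and 4 with WT 4 to 6. This split does not match both sexes in equal parts on every array, as the submitters' description may be read. The labels give no sex for an array, and values within each set are given where they bear on a gene. No 2 arrays correlated below 0.969 over the probe sets tested.

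The 250 bases before the annotated start are printed for Krt5 and Icam1, since Krt5 was the member that followed Krt15 most closely between arrays and Icam1 the member whose pairs with all other members were negative. They come from RefSeq, assembly GRCm38.p6, 5′ to 3′ on the strand of the gene, at chr15:101712906-101713155 on the minus strand for Krt5 and chr9:21015690-21015939 on the plus strand for Icam1. Capitals mark, in Krt5, 1 copy of the decamer bound by the p53 family, to which p63 belongs, and in Icam1 a site of the NF-kB form GGAANTTCC.
Krt5: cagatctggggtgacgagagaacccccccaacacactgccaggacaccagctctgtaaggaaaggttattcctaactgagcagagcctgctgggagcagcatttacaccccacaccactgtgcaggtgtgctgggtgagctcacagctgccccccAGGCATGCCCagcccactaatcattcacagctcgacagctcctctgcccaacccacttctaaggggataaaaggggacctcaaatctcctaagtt
Icam1: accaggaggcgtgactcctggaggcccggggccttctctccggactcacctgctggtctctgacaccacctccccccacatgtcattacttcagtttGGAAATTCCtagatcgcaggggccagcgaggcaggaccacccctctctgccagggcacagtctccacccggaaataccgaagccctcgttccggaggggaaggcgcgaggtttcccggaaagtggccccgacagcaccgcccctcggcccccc

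Both strands of each window were searched for 4 motifs. The p53-family decamer, which begins 95 bases before the start of Krt5, was present in 7.13% of 32851 windows of this length. The NF-kB form, 153 bases before the start of Icam1, was present in 0.813% of them. The TATA box TATAAA was present in 12.4% and the AP-1 site TGANTCA in 6.75% of the windows, and neither in those printed. The window listed for Col17a1 held TATAAA at 2 places and none of the other motifs. No motif was found in the window listed for Krt14, which lies inside the annotated gene. These are matches of letters and not measured binding. Krt15, Trp63 and Itgb4 are given by name only.

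Of the 7 genes, Krt15 showed the largest difference between genotypes. It was lower on every H2be-GF array than on any WT array, by 0.54 on the log2 scale, or 1.46-fold, but the difference did not pass the test over all probe sets. Krt14, Krt5, Col17a1 and Trp63 had negative differences of 0.17 or less in size, Itgb4 was near 0, and Icam1 had a positive difference, each with an interval that includes 0. In all, limma called 0 of the 7 genes at an adjusted p under 0.05, where 0.0862% of all probe sets tested (20 of 23194) were called. At an unadjusted p under 0.05 limma found 1 of 7, Krt15, against 8.43% of all probe sets in either direction and 4.07% in the lower direction. The median difference of the 7 genes was -0.13, and that of all probe sets tested was 0.01. Of all probe sets tested, 47.4% had a negative difference, and the SD of their differences was 0.134. The counts of signs and the medians of the lists below are to be read against these values.

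**Figure D1:**
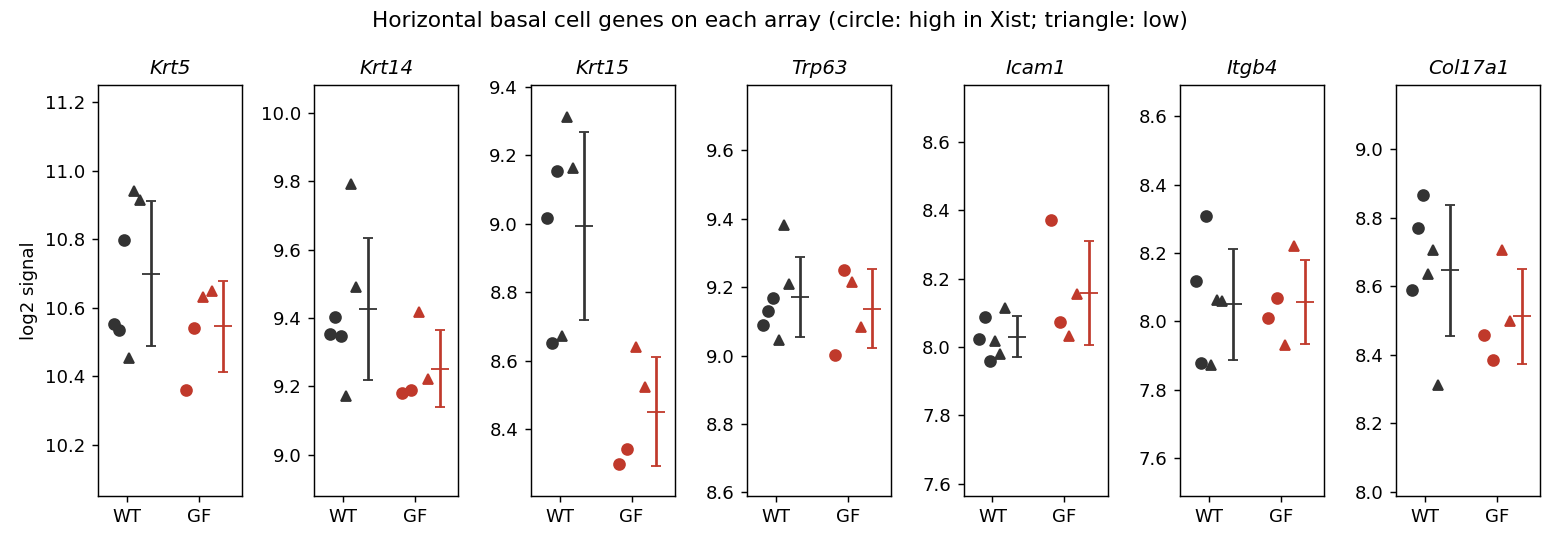
Log2 signal of the 7 genes by array, WT (6 arrays) in dark and H2be-GF (4 arrays, ticks marked GF) in red, with mean and SD beside the points; circles are arrays high in Xist, triangles arrays low in it, and all panels span the same range. Krt15 lies lower on all 4 H2be-GF arrays, from 8.30 to 8.64, than on any WT array, from 8.65 to 9.31, and the genotypes overlap at the other 6 genes.

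Krt15 codes for a type I keratin of resting basal and stem-like cells in stratified epithelia. Its signal was 8.30, 8.34, 8.64 and 8.52 on H2be-GF arrays 1 to 4. On the WT arrays it ran from 8.65 over a median of 9.09 to 9.31. The genotypes did not overlap, although the highest H2be-GF array and the lowest WT array were only 0.01 apart. Every H2be-GF array lay below every WT array at 1.6% of all probe sets tested.

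The WT arrays averaged 8.99 ± 0.27 (SD, n = 6) for Krt15 and the H2be-GF arrays 8.45 ± 0.16 (SD, n = 4). Since pool size differed by genotype, these SDs and the ranges above are not strictly comparable, and the effect of pool size was not tested. The change of -0.54 (SE 0.14) had a 95% interval of -0.84 to -0.24, which corresponds to 0.557-fold to 0.845-fold of WT. The limma adjusted p over all probe sets was 0.296 (unadjusted p = 0.00207), and Krt15 ranked 160 by p among them. Under 21 other settings Krt15 was lower each time, by 0.42 to 0.62, with an unadjusted p of 0.0484 or below. It was called under 1 of them, a trended robust variance model, with a limma adjusted p of 9.08e-07, where 114 probe sets were called in place of 20. When any 1 array was left out, the adjusted p of limma lay between 0.197 and 0.596.

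The lower Krt15 signal was present in both sets of arrays. In the arrays high in Xist it averaged 8.32 in H2be-GF and 8.94 in WT, a change of -0.62. In the arrays low in Xist it averaged 8.58 and 9.05, a change of -0.47. The difference between these changes was not called in limma (interaction -0.15, SE 0.27, adjusted p = 1.00). In whole tissue, fewer cells that express a gene and less RNA of it per cell cannot be told apart.

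Krt5 codes for the type II partner of keratin 14. Its signal was 10.36, 10.54, 10.63 and 10.65 on H2be-GF arrays 1 to 4, and on the WT arrays it ran from 10.45 over a median of 10.68 to 10.94. Only H2be-GF 1 lay below all WT arrays, and the change of -0.15 (SE 0.11, 95% interval -0.40 to 0.09) was not called in limma (adjusted p = 0.743) and was -0.09 without that array. Krt14, the type I keratin of the same filament, was at 9.18, 9.19, 9.42 and 9.22 on the H2be-GF arrays, against a WT range of 9.17 to 9.79 with a median of 9.38. No H2be-GF array lay outside the WT range. Its change was -0.17 (SE 0.11, 95% interval -0.41 to 0.06, limma adjusted p = 0.690). The intervals leave room for falls to 0.759-fold of Krt5 and 0.753-fold of Krt14, and for rises of 1.06-fold and 1.04-fold.

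The values of Krt15 were also read against its companion keratins within each array, as a description without a test, since the pairs were chosen after the values of Krt15 were seen and reuse its difference. The log2 signal of Krt15 minus that of Krt5 averaged -1.71 ± 0.13 (SD, n = 6) over the WT arrays and -2.09 ± 0.09 (SD, n = 4) over the H2be-GF arrays, with ranges of -1.89 to -1.54 and -2.20 to -1.99. Krt15 minus Krt14 ranged from -0.75 to -0.19 on the WT arrays and from -0.88 to -0.70 on the H2be-GF arrays. The genotypes did not overlap in the first quantity and overlapped in the second, through the array WT 2. The genotype means differed by -0.39 and -0.37, and by -0.43 to -0.36 and -0.43 to -0.32 when 1 array was left out.

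Trp63 codes for p63, which holds horizontal basal cells at rest and switches on the keratin genes of basal layers. Its signal was 9.00, 9.25, 9.22 and 9.08 on the H2be-GF arrays and ran from 9.05 over a median of 9.15 to 9.38 on the WT arrays. Only H2be-GF 1 lay outside the WT range, just below it. The change was -0.03 (SE 0.08, limma adjusted p = 0.940), and its 95% interval of -0.21 to 0.14 corresponds to 0.865-fold to 1.10-fold of WT. The sign turned without H2be-GF 1 (0.01) or WT 5 (0.01) and in a model that blocks on replicate number (0.03). Trp73, a relative of p63 in the p53 family, had a change of 0.05 (SE 0.11, limma adjusted p = 0.933).

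Among the adhesion genes, Icam1 was the only member with a positive change beyond 0.01. It codes for a receptor of the cell surface to which leukocyte integrins bind, and which endothelial and immune cells carry as well as horizontal basal cells. Its signal was 8.37, 8.07, 8.03 and 8.15 on the H2be-GF arrays and ran from 7.96 over a median of 8.02 to 8.11 on the WT arrays. H2be-GF 1 and 4 lay above all WT arrays, and the other 2 lay within the WT range. The change of 0.13 (SE 0.07, 95% interval -0.04 to 0.29) was not called in limma (adjusted p = 0.682). Without H2be-GF 1, the highest array, the change was 0.06.

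Itgb4 codes for the β4 integrin subunit, which pairs with α6 in hemidesmosomes. Its signal was 8.01, 8.07, 7.93 and 8.22 on the H2be-GF arrays, inside the WT range of 7.87 to 8.31. The change was 0.01 (SE 0.09, 95% interval -0.20 to 0.21, limma adjusted p = 0.990), and its sign was not stable, being -0.05 without H2be-GF 4, -0.03 without WT 2 or WT 4, -0.01 with array weights and also -0.01 after a second quantile normalization. Col17a1 codes for collagen XVII, the transmembrane collagen of hemidesmosomes. It was at 8.46, 8.38, 8.71 and 8.50 on the H2be-GF arrays, inside the WT range of 8.31 to 8.87. Its change was -0.13 (SE 0.11, 95% interval -0.36 to 0.10, limma adjusted p = 0.766) and was -0.20 without WT 6, the lowest WT array.

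Col17a1 was the member whose difference varied most between the sets of arrays. It was at -0.32 in the arrays high in Xist, where both H2be-GF arrays lay below all 3 WT arrays, and at 0.05 in the arrays low in it. Within the arrays high in Xist limma did not call Col17a1 (adjusted p = 0.920). The share of all probe sets with that order of the 5 arrays was not counted. The difference of -0.37 (SE 0.20) between the sets was not called in limma (adjusted p = 1.00). Itgb4 likewise had -0.06 in one set and 0.08 in the other. Between the sets themselves, with the genotype in the model, Krt5, Krt14, Krt15 and Trp63 were lower in the arrays high in Xist, by 0.06 to 0.17, and none of the 7 genes was called (limma adjusted p of 0.974 or above, and 0 with an unadjusted p under 0.05).

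**Figure D2:**
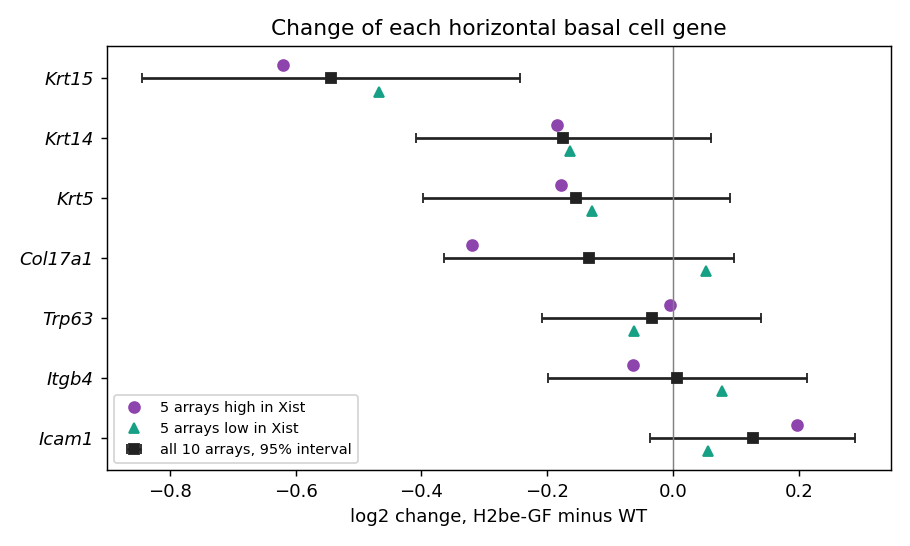
Log2 change of each of the 7 genes, H2be-GF minus WT, with its 95% interval from limma over all 10 arrays (squares) and the change within the 5 arrays high in Xist (circles) and the 5 arrays low in it (triangles). The interval of Krt15, -0.84 to -0.24, lies below 0 and those of the other 6 include 0.

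Between arrays of the same genotype, 5 of the 21 pairs of members passed by Pearson's r, all among the 3 keratins and Trp63. How often pairs of other genes would pass was not counted, so the 5 pairs do not show co-variation particular to basal genes. After subtraction of each genotype's mean, Krt5 and Krt15 had a Pearson r of 0.887 and a Spearman rho of 0.867 over the 10 arrays (permutation p = 8.50e-04 and 0.00203, adjusted over 21 pairs 0.0178 and 0.0426). Without the 2 arrays farthest from the median of Krt5, r was 0.833. For Krt14 and Trp63 r was 0.815 and rho 0.685 (permutation p = 0.00357 and 0.0350, adjusted 0.0375 and 0.211), and r was 0.510 without the 2 farthest arrays. Pearson's r also passed for Krt5 with Trp63 (0.770), Krt5 with Krt14 (0.745) and Krt14 with Krt15 (0.738), with permutation p-values adjusted over the pairs of 0.0448, 0.0414 and 0.0448. Krt15 with Trp63 did not pass (0.649, adjusted permutation p = 0.150), and Spearman's rho passed for Krt5 with Krt15 alone.

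These pairs depended on single arrays. In place of 5 pairs, 2 passed with the means of each Xist set within a genotype subtracted, and 0 to 5 when 1 array was left out. WT 5 had the highest signal of all 10 arrays for Krt5, Krt14, Krt15 and Trp63, and without it 0 pairs passed, with r at 0.848 for Krt5 and Krt15 (adjusted permutation p = 0.145) and 0.602 for Krt14 and Trp63 (adjusted permutation p = 0.260). Only 1 pair passed without H2be-GF 1, WT 1, WT 4 or WT 6, and 3 pairs passed without H2be-GF 3.

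The adhesion genes did not follow the keratins as a group. Itgb4 had an r of 0.560 with Krt15 and 0.481 with Krt5 but 0.025 with Krt14, and Col17a1 lay between -0.08 and 0.13 with the keratins and Trp63. Icam1 had a negative r with each of the other 6 genes, the lowest with Trp63 at -0.572. None of these pairs passed (adjusted permutation p of 0.245 or above).

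**Figure D3:**
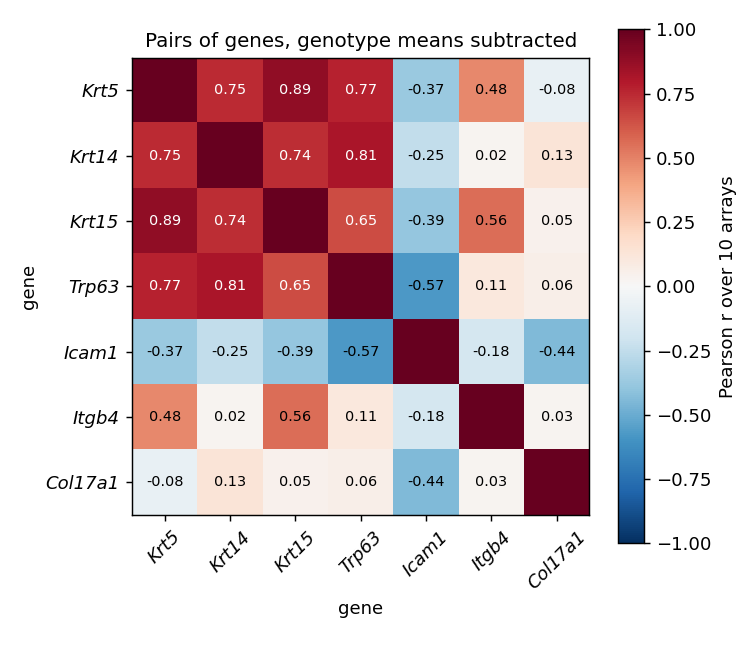
Pearson r between the 7 genes over the 10 arrays, with each genotype's mean subtracted first; red is positive and blue negative. Krt5, Krt14, Krt15 and Trp63 form a block from 0.649 to 0.887, and the Icam1 row is negative throughout.

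The genes whose deviations over the 10 arrays were most like those of a member were looked up among all probe sets with 1 symbol, as a description without a test. For Krt14 they were Krt17, a keratin that pairs with keratin 6 in wounded and appendage epithelium (r = 0.941), Sprr1b, a cornified envelope protein of squamous epithelium (0.931), and Lrrc69 (0.913). For Krt5 they were Epn1 (0.972), Krt7, a keratin of glandular and simple epithelium (0.960), and Tbl2 (0.950). For Krt15 they were Cdhr4 (0.957), Cd2ap (0.929) and again Tbl2 (0.922). The genes named are the highest values of a search over many probe sets on 10 arrays. How high r would run by chance in such a search was not tested, so no shared function is read from them. Among the other members Krt15 was nearest to Krt5, at rank 13 of all probe sets, and Krt5 was nearest to Krt15, at rank 6.

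For Trp63 the most like genes were Catip (0.950), Dcpp1 (0.950) and Ssr4 (0.947). For Icam1 they were Polg (0.934), Mexis (0.925) and Cep135 (0.905). For Itgb4 they were Mex3b (0.937), Myl6 (0.917) and Pam (0.914), and for Col17a1 Rab26 (0.943), Gucy2c (0.936) and Hap1 (0.925). No member was among the 3 most like genes of another member, and none of the genes named in these lists was called between genotypes (limma adjusted p of 0.431 or above).

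Genes that work beside the 7 members gave no call. Of 11 partners in hemidesmosomes and the basement membrane, 6 had a positive and 5 a negative change, between -0.13 and 0.17, and limma found 0 at either an adjusted or an unadjusted p under 0.05. Cd151, a tetraspanin of hemidesmosomes, averaged 10.17 ± 0.08 (SD, n = 6) over the WT arrays and 10.03 ± 0.05 (SD, n = 4) over the H2be-GF arrays, without overlap (change -0.13, limma adjusted p = 0.598). The share of all probe sets tested that were lower on every H2be-GF array was 1.6%. Lamc1, a laminin chain of basement membranes, had a change of 0.14 (SE 0.06, limma adjusted p = 0.607). The median of these partners was 0.02, and of the 2 members that belong to the same structure Itgb4 was at 0.01 and Col17a1 at -0.13.

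Of 13 other genes of basal epithelial layers or linked to p63, 9 had a negative change and 4 a positive one, with a median of -0.03 and 0 called. Dsg3, a desmosomal cadherin of the lower layers of squamous epithelium, had the smallest p, with a dim mean signal of 5.64 and a change of -0.39 (SE 0.17, limma adjusted p = 0.588), and was the only one of them at an unadjusted p under 0.05. Ripk4, a kinase of epidermal differentiation, was at 0.12 (SE 0.08). Among 10 genes of signals that act on basal cells, the Notch ligand gene Jag1 was at 0.19 (SE 0.07) and the Notch target gene Hes1 at -0.19 (SE 0.07), both at an unadjusted p under 0.05 and neither called (limma adjusted p = 0.465 and 0.482).

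Of 6 genes that horizontal basal cells take up after injury, 4 had a negative change and 2 a positive one, with a median of -0.16 and 0 called. Dmkn, a secreted protein of squamous epithelium, was at -0.28 (SE 0.11, limma adjusted p = 0.482), and Hopx, a homeodomain-only protein, at 0.19 (SE 0.07, limma adjusted p = 0.490). The mean signal of these 6 genes spanned 7.70 to 7.79 on the H2be-GF arrays and 7.43 to 8.20 on the WT arrays, with the highest value on WT 5. Of 10 genes of the globose basal cells, the dividing progenitors that lie above the horizontal ones, 7 had a negative and 3 a positive change with a median of -0.01. Neurog1, a factor of neuronal precursors, was at 0.16 (SE 0.06) and Hes6 at -0.14 (SE 0.06), and 0 were called.

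Since Krt15 stood apart, the whole keratin family was set beside it. Of 52 keratin genes, 30 had a negative and 22 a positive change, with a median of -0.05 and 0 called. At an unadjusted p under 0.05 limma found 4 lower, Krt15 among them, and 3 higher. Of all probe sets tested, 8.43% were at such a p in either direction and 4.07% in the lower direction. Krt15 had the most negative change and the smallest p among them. Krt74, a dim keratin of hair follicles, was next by p, at 0.39 (SE 0.12, limma adjusted p = 0.387). Next in size of fall were Krt13 at -0.46 (SE 0.28), Krt6b at -0.41 (SE 0.33) and Krt4 at -0.40 (SE 0.20). The other keratins lower at that unadjusted p were Krt90 at -0.26, Krt19 at -0.22 and Krt72 at -0.17. Those higher beside Krt74 were Krt87 at 0.23 and Krt23 at 0.13. A fall in a keratin was thus not particular to Krt15.

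Basal cells with the same keratins and p63 also lie under respiratory and squamous epithelium, so markers of those tissues and of other cells were read on the same arrays. Of 8 genes of ciliated respiratory cells 6 had a negative change, with a median of -0.13. Of these, 4 were lower and 1 was higher at an unadjusted p under 0.05, and limma called 0. The shares of all probe sets at such a p were 8.43% in either direction and 4.07% in the lower direction. Tekt1, a protein of ciliary microtubules, was at -0.19 (SE 0.06, limma adjusted p = 0.405) with the genotypes apart, and Dnah11, a dynein heavy chain of motile cilia, was at 0.18 (SE 0.06, limma adjusted p = 0.421) in the opposite direction, also with the genotypes apart. Of all probe sets tested, 1.6% were lower on every H2be-GF array, as Tekt1 was, and the share in the direction of Dnah11 was not counted. The mean signal of the 8 genes was 9.12 to 9.22 on the H2be-GF arrays and 9.17 to 9.31 on the WT arrays, with none at 0. The part of ciliated tissue in the Krt15 difference was not tested.

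Of 6 squamous genes 5 had a negative change, with a median of -0.06, and limma called 0 and found 0 at an unadjusted p under 0.05. Krt4 and Krt13, which pair in the upper layers of that epithelium, were at -0.40 (SE 0.20) and -0.46 (SE 0.28, limma adjusted p = 0.689). The mean signal of the list was 7.01 to 7.26 in H2be-GF and 7.03 to 7.64 in WT, again highest on WT 5. The part of squamous tissue in the values of WT 5 was not tested. Without WT 5 the change of Krt15 was -0.48, that of Krt14 -0.10 and that of Krt5 -0.11.

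For Icam1, the other cells that carry it gave no common direction. Of 8 endothelial genes 6 had a positive change with a median of 0.05, and Vwf, the von Willebrand factor gene, was at 0.26 (SE 0.11, limma adjusted p = 0.547). Of 9 leukocyte genes, which include the integrin chains that bind ICAM1, 6 had a negative change with a median of -0.04. Among them Itgb2, the β2 chain, was at -0.26 (SE 0.10, limma adjusted p = 0.481) and Ptprc, the CD45 gene, at 0.27 (SE 0.11, limma adjusted p = 0.537). The mean signal of the endothelial list was 7.70 to 7.82 in H2be-GF and 7.59 to 7.87 in WT, and that of the leukocyte list 8.33 to 8.50 and 8.33 to 8.48.

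The lists of sustentacular cells, glands, connective tissue, ensheathing glia and muscle had median changes between -0.02 and 0.02 with 0 called and 0 at an unadjusted p under 0.05 in limma. Of the 8 neuronal markers 6 had a negative change, with a median of -0.10, 1 at an unadjusted p under 0.05 and 0 called in limma. The genotypes did not overlap for 3 of the 8, Omp, Cnga2 and Rtp1, each lower on all H2be-GF arrays, against the 1.6% of all probe sets given above, and these are named for that after their values were seen. Cnga4 and Cnga2, channel subunits of odor transduction, were at -0.13 (SE 0.06, limma adjusted p = 0.587) and -0.12 (SE 0.05, limma adjusted p = 0.604). No gene of any of the lists was at 0 on any array.

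**Figure D4:**
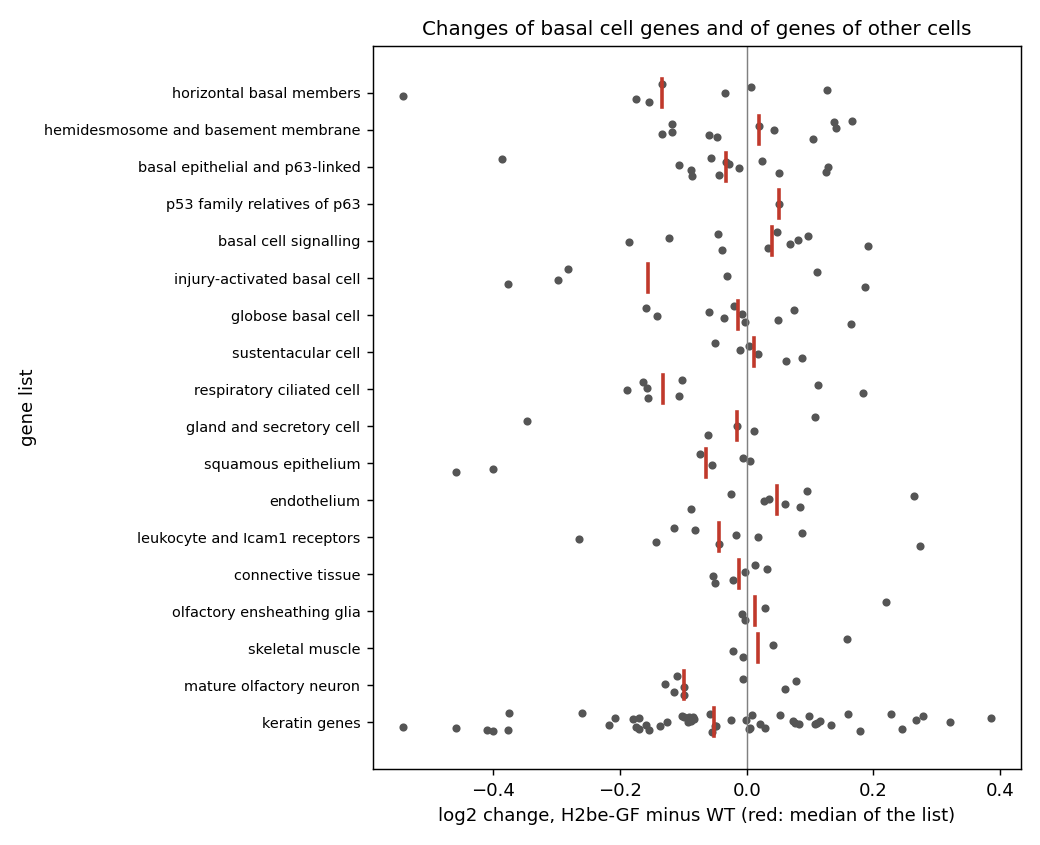
Log2 change, H2be-GF minus WT, of every gene tested in each list (grey points) and the median of the list (red bar). The horizontal basal genes run from Krt15 at -0.54 to Icam1 at 0.13 with a median of -0.13, and the medians of all lists lie between -0.16 and 0.05.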

How the data were processed

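Whole MOE RNA was hybridised to 10 arrays. The authors checked the scans for outliers with arrayQualityMetrics and, with Affymetrix Expression Console, made IterPLIER summaries with sketch-quantile normalization, which they deposited as log2 values (0 to 14.2, with 95 to 157 values per array at 0). Which versions they used, and any genome build, is not given in the sources used here. Quantile normalization hides a change shared by most genes, and values of dim probe sets are less certain.

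Probe sets were named from the platform annotation, in which 21789 had 1 symbol, 1621 several and 12146 none, with symbols updated by Entrez ID through RefSeq GRCm38.p6 (21698 matched). Of a gene with several probe sets the brightest was used. Probe sequences were not used here. A few genes of the lists are not reported here.

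Genotypes were compared by lmFit and eBayes (limma 3.58.1, R 4.3.3), two-sided and with no covariate, on 23194 probe sets with a symbol and a mean above 5, adjusted over all of them by Benjamini-Hochberg. Arrays are replicates by their labels, and the p-values reflect only how far these pooled samples differ. The larger pools of H2be-GF were not allowed for in the model. The number of arrays limits the precision. The procedure was tested on simulated data. Pairs of members were tested by 100000 permutations. The members and lists were chosen with earlier results of these data known. Named were the members, of a list up to 2 genes with the smallest p and any called, and for each member the 3 most like genes. Further keratins were named by the size of their fall or by an unadjusted p under 0.05. As alternatives, a second quantile normalization, median centring, 16 added to the linear value, a trended robust variance, array weights, a replicate block, the Xist sets, other filters on the mean and omission of each array were tried. Added after the data were seen were the same omissions for the pairs, and the comparisons of Krt15 with Krt5 and Krt14. Plots were drawn with matplotlib 3.10.9.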

Additional observations from a re-analysis of the deposited data

How the results depend on the processing

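Krt15 was lower in H2be-GF under all 21 alternatives and Krt5 and Krt14 likewise, while Icam1 stayed higher under all 21. None of the 7 genes was called except Krt15 with a trended robust variance, so that 1 gene was called there and 0 elsewhere. Itgb4 turned to -0.01 with a second quantile normalization (-0.0054) and with array weights (-0.011), to -0.063 in the arrays high in Xist and to between -0.047 and 0.059 when 1 array was left out. Trp63 turned to 0.028 with the replicate block and lay between -0.071 and 0.012 when 1 array was left out, and Col17a1 turned to 0.052 in the arrays low in Xist. The number of probe sets called, 20, became 114 with a trended robust variance, 36 with a mean above 7, 5 with the replicate block, 0 within the arrays high in Xist (1113 at an unadjusted p under 0.05), 0 within those low in it (1012), and 11 to 19 when 1 array was left out. The 5 pairs became 2 with the set means subtracted and 0 to 5 when 1 array was left out. Why these values moved was not tested. The replicate numbers were not taken to pair the arrays. Deviations of same-numbered arrays correlated at 0.53, 0.22, -0.42 and 0.26, which cannot settle the matter, since arrays with different numbers were not compared. With the replicate block Krt15 was at -0.42, Krt14 at -0.07, Krt5 at -0.04 and Col17a1 at -0.20 (unadjusted p = 0.0359), and the lowest limma adjusted p among the 7 genes was 0.592. The 7 genes lay at 8.03 to 10.7 on average, above the filter at 5. Passing that filter does not show that a gene was detected. Of all probe sets tested, 45.3% had a lower mean than Icam1 and 44.7% a lower mean than Itgb4, so background may weigh on their values.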
